A study of Mus musculus with 15 samples.

Results

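The insulin-like growth factor (Igf) axis was examined in yolk sac (YS) erythro-myeloid progenitors (EMPs) through 8 genes: the ligand *Igf1*, the receptor *Igf1r* and the binding proteins *Igfbp2*, *Igfbp3*, *Igfbp4*, *Igfbp5*, *Igfbp6* and *Igfbp7*. All 8 were present among the 17454 genes of the expression table. They were selected on earlier results of the same libraries, so their levels and differences in Tie2-Ezh2-KO EMPs, and the number of them past a threshold there, are given as a description and support nothing.

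RNA-seq covered 15 libraries of E10.5 YS EMPs sorted as KIT+ CD41+ CD16/32+ cells from C57BL/6 embryos, each library from an individual YS. Every embryo carried Ezh2 fl/fl. Tie2-Ezh2-KO embryos (n = 5) also carried *Tie2*-Cre, which is active in endothelium, the layer from which EMPs emerge, and Vav-Ezh2-KO embryos (n = 5) carried *Vav*-iCre, which is active in hematopoietic cells. The controls were embryos without the Cre, 3 Tie2-Ezh2-WT and 2 Vav-Ezh2-WT, and were used together as WT (n = 5). The labels state 500 cells per library, whereas the text of the study gives a smaller number. The libraries came from 3 experiments that the labels do not assign, so effects of the day of the experiment cannot be told apart from the groups.

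IGF1 and IGF2 are secreted hormones that bind the tyrosine kinase IGF1R and signal through insulin receptor substrates, PI3K and AKT to favour growth and survival. Most extracellular IGF is held by IGF-binding proteins, which compete with the receptor and are cut by proteases that free the ligand. IGFBP7 binds IGFs only weakly and is known as a matrix protein of blood vessels. EZH2 is the catalytic subunit of PRC2, which places the repressive mark H3K27me3, typically at promoters rich in CG pairs.

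The promoters of the members differ widely in CG content. Below are the 250 bases upstream of a RefSeq transcript start (build GRCm38.p6, 5′ to 3′ on the strand of the gene, CG pairs in capitals) of *Igfbp2* and *Igfbp7*, the members for which all Tie2-Ezh2-KO libraries lay above all WT libraries, and of *Igfbp4*, the most abundant member.
*Igfbp2* (chr1:72824230-72824479, plus strand): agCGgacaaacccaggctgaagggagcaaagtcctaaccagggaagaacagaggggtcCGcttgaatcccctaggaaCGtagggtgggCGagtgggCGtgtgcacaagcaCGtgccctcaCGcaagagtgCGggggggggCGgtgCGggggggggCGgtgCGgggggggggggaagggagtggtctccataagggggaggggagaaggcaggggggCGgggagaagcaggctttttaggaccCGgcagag
*Igfbp7* (chr5:77408046-77408295, minus strand): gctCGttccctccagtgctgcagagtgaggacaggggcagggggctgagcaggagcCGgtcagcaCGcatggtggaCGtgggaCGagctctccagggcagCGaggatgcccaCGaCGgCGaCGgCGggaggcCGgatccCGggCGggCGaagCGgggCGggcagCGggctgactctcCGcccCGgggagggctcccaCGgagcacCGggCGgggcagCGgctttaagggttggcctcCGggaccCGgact
*Igfbp4* (chr11:99040994-99041243, plus strand): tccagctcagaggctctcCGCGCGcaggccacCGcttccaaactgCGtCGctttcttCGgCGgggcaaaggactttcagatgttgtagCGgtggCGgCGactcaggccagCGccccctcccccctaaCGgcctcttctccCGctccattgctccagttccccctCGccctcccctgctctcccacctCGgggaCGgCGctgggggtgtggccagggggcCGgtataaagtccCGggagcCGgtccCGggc
The starts used for *Igfbp4*, *Igf1* and *Igfbp3* lie inside the span that RefSeq gives for the gene, so these stretches are not upstream of its outer end. The stretch shown for *Igfbp2* holds 14 CG pairs, that of *Igfbp7* 26 and that of *Igfbp4* 22, against a median of 6 over the 32851 promoters of the reference table. *Igf1r* held the most among the members, 42, and *Igf1* the fewest, 5. The other members held 32 (*Igfbp3*), 10 (*Igfbp5*) and 7 (*Igfbp6*), and a second start of *Igfbp2* held 11. A search for GGGCGG on both strands found 3 matches in the *Igfbp2* stretch, 4 in that of *Igfbp7* and 2 in that of *Igf1r*, and 32.7% of all promoters held at least 1. TATAAA on both strands matched once each upstream of *Igfbp4* and *Igfbp6*, and 12.4% of all promoters held it. These are counts of letters, and no binding or chromatin signal was analysed here.

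Levels are given in RPKM, reads scaled to the length of the gene and to the reads on genes in the library. This allows genes to be compared per length. Libraries held between 10407398 and 41025074 reads on genes. The 8 EMP markers, *Kit* and *Itga2b* (CD41) among them, summed to between 457.4 and 626.3 RPKM in every library, and the 3 ranges by group overlapped. *Gata1* and *Sfpi1* led this sum, with WT means of 168.3 and 156.6 RPKM. The sort marker *Fcgr3* was 66.9 to 108.2 RPKM in Tie2-Ezh2-KO against 100.5 to 152.3 in WT. *Fcgr2b* was 4.68 to 6.67 against 6.53 to 12.2 RPKM. Their log2 differences were -0.47 and -0.65 (limma, adjusted p = 0.131 for both). *Ptprc*, *Kit*, *Itga2b* and *Runx1* were also lower (-0.80 to -0.12), and *Gata1* and *Sfpi1* higher (0.08 and 0.25). Of the 8, 0 passed (limma). *Ezh2* over its whole length averaged 38.0 ± 4.84 RPKM (SD, n = 5) in WT, 27.0 ± 1.78 (SD, n = 5) in Tie2-Ezh2-KO and 37.2 ± 3.56 (SD, n = 5) in Vav-Ezh2-KO EMPs. A level over all exons does not test the deleted exon. Visceral endoderm transcripts stood apart in Tie2-Ezh2-WT 4 and Tie2-Ezh2-KO 7, with a sum over 8 markers of 174.1 and 245.1 RPKM, against 1.88 to 14.9 RPKM in the other 13 libraries. Values with and without these libraries are given below.

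**Figure D1:**
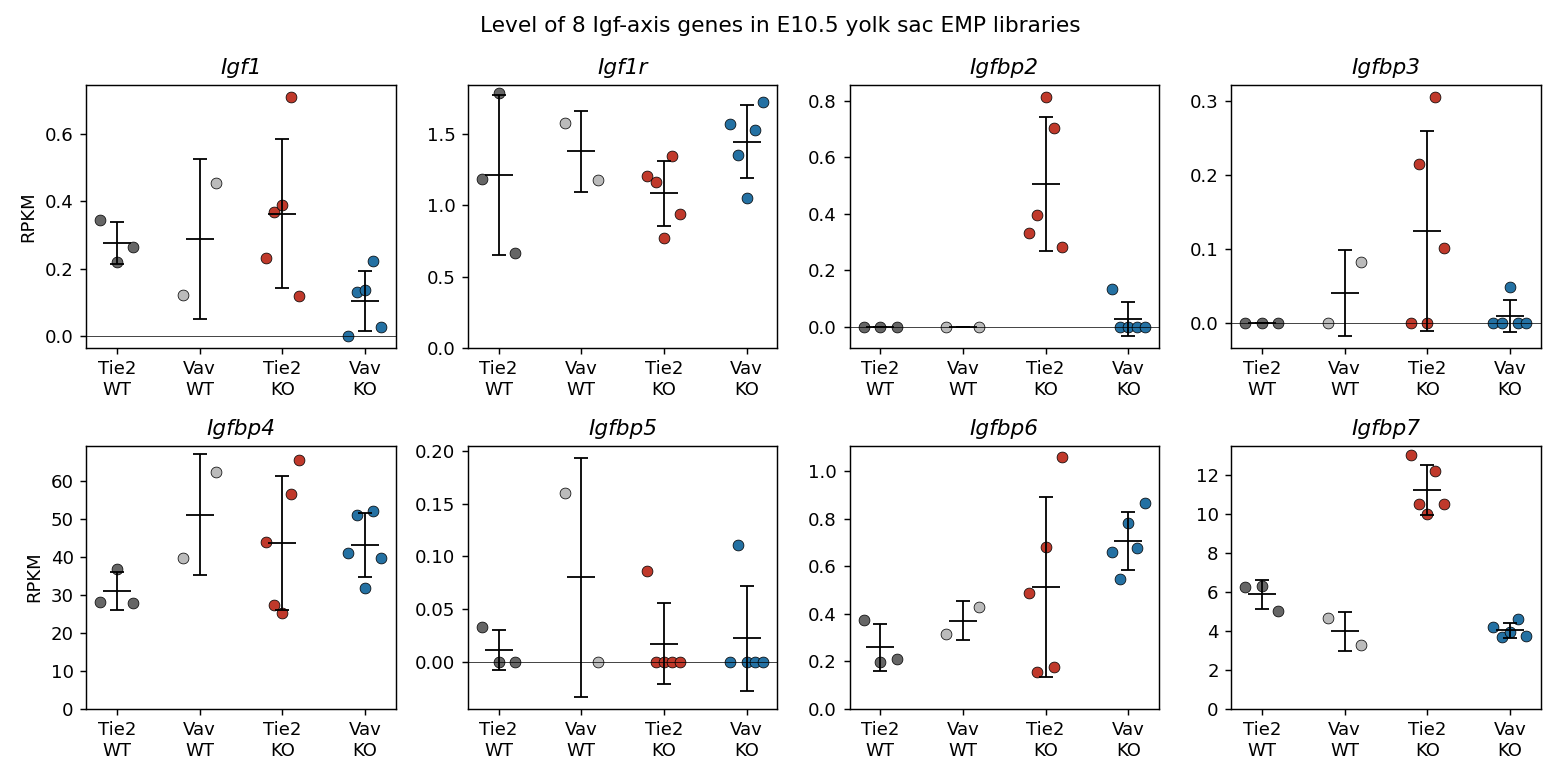
Level of each member (RPKM, linear axis from its own range) in every library, by group. Points are libraries, horizontal bars are means and error bars are SD. *Igfbp2* and *Igfbp7* lie above all WT libraries in 5 of 5 Tie2-Ezh2-KO libraries, and *Igfbp6* does so in 5 of 5 Vav-Ezh2-KO libraries.

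The first places in the order of levels were the same in every library. *Igfbp4* was the most abundant member in 15 of 15 libraries and *Igfbp7* came next in 15 of 15. *Igf1r* followed in 13 of 15; in Tie2-Ezh2-KO 11 *Igfbp2* lay above it at 0.814 against 0.772 RPKM, and in Tie2-Ezh2-KO 17 *Igfbp6* did at 1.06 against 0.939 RPKM. Over the 15 libraries the mean was 42.0 RPKM for *Igfbp4*, 6.78 for *Igfbp7*, 1.27 for *Igf1r*, 0.507 for *Igfbp6*, 0.249 for *Igf1*, 0.177 for *Igfbp2*, 0.0501 for *Igfbp3* and 0.0260 for *Igfbp5*. *Igfbp4* was above 85.3% of the genes in the table by this mean, *Igfbp7* above 64.4% and *Igf1r* above 45.8%. The ranges of *Igfbp6* (0.152 to 1.06 RPKM), *Igf1* (0 to 0.711), *Igfbp2* (0 to 0.814), *Igfbp3* (0 to 0.305) and *Igfbp5* (0 to 0.161) overlapped. The order of these 5 genes changed between libraries, although *Igfbp6* lay above *Igfbp5* within every library.

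*Igf1*, the ligand, lies at chr10:87858265-87937047 and was expressed at a low level. In Tie2-Ezh2-WT replicates 4, 10 and 12 it measured 0.344, 0.218 and 0.265 RPKM, and in Vav-Ezh2-WT replicates 4 and 6 it measured 0.120 and 0.455 RPKM. Tie2-Ezh2-KO replicates 7, 9, 11, 13 and 17 gave 0.233, 0.368, 0.388, 0.711 and 0.119 RPKM. Vav-Ezh2-KO replicates 1, 9, 10, 26 and 28 gave 0, 0.132, 0.137, 0.222 and 0.0267 RPKM. The Tie2-Ezh2-KO libraries spread around and beyond the WT range, with 1 above and 1 below it, whereas 5 of 5 Vav-Ezh2-KO libraries lay below the WT mean of 0.281 RPKM and 2 of them below all WT libraries. The difference on the log2(RPKM + 0.2) scale was 0.18 (SE 0.32) for Tie2-Ezh2-KO and -0.68 (SE 0.29) for Vav-Ezh2-KO minus WT. The latter did not pass the test over all genes (limma, adjusted p = 0.617), and a two-sided exact permutation test gave p = 0.0556. The values rest on 225 reads in WT, 282 in Tie2-Ezh2-KO and 63 in Vav-Ezh2-KO libraries in all. In a sorted bulk sample, fewer cells carrying a transcript and less transcript per cell cannot be told apart.

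*Igf1r*, the receptor (chr7:67952257-68233668), was detected in all libraries, with 137 to 593 reads in each. It measured 1.19, 1.79 and 0.670 RPKM in Tie2-Ezh2-WT, 1.58 and 1.18 in Vav-Ezh2-WT, 1.21, 1.16, 0.772, 1.34 and 0.939 in Tie2-Ezh2-KO, and 1.58, 1.36, 1.06, 1.53 and 1.72 in Vav-Ezh2-KO, in the order of replicates used above. Every knockout library lay within the WT range. The log2 difference from WT was -0.17 (SE 0.29) in Tie2-Ezh2-KO and 0.19 (SE 0.26) in Vav-Ezh2-KO EMPs, and the latter did not pass the test (limma, adjusted p = 0.873). The lowest and highest libraries were both WT and both Tie2-Ezh2-WT.

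*Igfbp4* (chr11:99040005-99052655), an inhibitory binding protein that is cleaved by the protease PAPPA, carried most of the binding-protein transcripts. It measured 28.2, 36.9 and 28.0 RPKM in Tie2-Ezh2-WT and 39.9 and 62.6 in Vav-Ezh2-WT. Tie2-Ezh2-KO libraries gave 44.0, 27.4, 25.1, 56.8 and 65.6 RPKM, and Vav-Ezh2-KO libraries 41.1, 51.2, 31.8, 52.2 and 39.7 RPKM. The groups overlapped throughout, and the Tie2-Ezh2-KO values held both the lowest and the highest of the 15. The log2 difference from WT was 0.13 (SE 0.27) in Tie2-Ezh2-KO and 0.19 (SE 0.20; limma, adjusted p = 0.844) in Vav-Ezh2-KO, and the latter was -0.23 against the 2 Vav-Ezh2-WT libraries alone. With 607 to 3148 reads per library, counting error was small beside the spread: the coefficient of variation was 36.1% in WT, 40.6% in Tie2-Ezh2-KO and 19.7% in Vav-Ezh2-KO, where counting alone would give 2.35% to 2.50%.

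*Igfbp7* (chr5:77349240-77408045) was, with *Igfbp2*, a member whose Tie2-Ezh2-KO libraries did not overlap with WT. It measured 6.26, 6.31 and 5.00 RPKM in Tie2-Ezh2-WT and 4.65 and 3.26 RPKM in Vav-Ezh2-WT. In Tie2-Ezh2-KO it measured 13.0, 10.52, 9.96, 12.2 and 10.502 RPKM, and in Vav-Ezh2-KO 4.20, 3.67, 3.91, 4.59 and 3.70 RPKM. All 5 Tie2-Ezh2-KO libraries lay above all WT and all Vav-Ezh2-KO libraries. Against WT this held for 3.29% of the 14154 genes tested, and the share against Vav-Ezh2-KO is not given here. The mean was 5.10 ± 1.26 RPKM (SD, n = 5) in WT, 11.2 ± 1.29 (SD, n = 5) in Tie2-Ezh2-KO and 4.02 ± 0.383 (SD, n = 5) in Vav-Ezh2-KO, which made Tie2-Ezh2-KO 2.20-fold higher than WT. The log2 difference was 1.14 (SE 0.19) for Tie2-Ezh2-KO and -0.30 (SE 0.19) for Vav-Ezh2-KO minus WT.

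The 2 kinds of WT libraries also differed in *Igfbp7*, since all 3 Tie2-Ezh2-WT lay above both Vav-Ezh2-WT libraries. Against WT libraries of the same Cre line only, the log2 difference was 0.92 in Tie2-Ezh2-KO and 0.04 in Vav-Ezh2-KO. The Vav-Ezh2-KO difference did not pass the test against pooled WT (limma, adjusted p = 0.715; two-sided exact permutation test, p = 0.143). Within Vav-Ezh2-KO the coefficient of variation of 9.54% was close to the 10.01% that counting alone would give.

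*Igfbp2* (chr1:72824480-72852474), a secreted binding protein that also interacts with integrins, had no read in any WT library. It was present in all 5 Tie2-Ezh2-KO libraries at 0.331, 0.394, 0.814, 0.702 and 0.281 RPKM, from 7, 8, 16, 25 and 6 reads. Of the Vav-Ezh2-KO libraries only replicate 1 held reads, 5 of them, at 0.133 RPKM. Tie2-Ezh2-KO libraries thus did not overlap with either other group, which is a description. All Tie2-Ezh2-KO lay above all WT libraries in 3.29% of genes, and the share against Vav-Ezh2-KO is not given here. A count of 0 allows up to 3 reads, which is worth 0.217 RPKM in the shallowest WT library, Tie2-Ezh2-WT 4, and 0.0551 RPKM in the deepest, Tie2-Ezh2-WT 12. With 3 reads set in each WT library, the Tie2-Ezh2-KO mean of 0.504 ± 0.238 RPKM (SD, n = 5) was 3.71-fold higher than WT. This fold allows for counting error in WT only and not for the spread of Tie2-Ezh2-KO libraries, so it is not a lower bound. PCR copies are also not independent molecules. The log2(RPKM + 0.2) difference was 1.75 (SE 0.28), a value that moved with the pseudocount from 0.58 (pseudocount 1) to 3.37 (pseudocount 0.05).

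*Igfbp2* and its neighbour *Igfbp5* lie side by side on chromosome 1, with *Igfbp5* at chr1:72858065-72874865. *Igfbp5*, a binding protein with high affinity for extracellular matrix, had reads in only 4 libraries: 0.0328 RPKM in Tie2-Ezh2-WT 4, 0.161 in Vav-Ezh2-WT 4, 0.0858 in Tie2-Ezh2-KO 7 and 0.111 in Vav-Ezh2-KO 9. These came from 2, 14, 8 and 12 reads, so the gene showed no pattern by group and no fold is given. *Igfbp3* (chr11:7206086-7215498), the main carrier of IGF in serum, had reads in 1 WT library (Vav-Ezh2-WT 6, 0.0821 RPKM), in 3 of 5 Tie2-Ezh2-KO libraries (0.214, 0.305 and 0.102 RPKM in replicates 9, 13 and 17) and in 1 Vav-Ezh2-KO library (replicate 10, 0.0486 RPKM). The 3 Tie2-Ezh2-KO values were above all WT values and the other 2 were 0. The total was 32 reads in Tie2-Ezh2-KO against 4 in WT and 2 in Vav-Ezh2-KO libraries. Read numbers of *Igfbp3* and *Igfbp5* rest on gene lengths of 2442 and 5854 bases, chosen to match annotated transcripts.

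*Igfbp6* (chr15:102144186-102149512), which binds IGF2 in preference to IGF1, was higher in Vav-Ezh2-KO than in WT libraries without overlap. It measured 0.373, 0.196 and 0.208 RPKM in Tie2-Ezh2-WT and 0.313 and 0.428 in Vav-Ezh2-WT, from 4 to 11 reads each. Vav-Ezh2-KO libraries gave 0.659, 0.548, 0.782, 0.674 and 0.865 RPKM, from 10 to 32 reads each. Tie2-Ezh2-KO libraries were split, at 0.487, 0.152, 0.681, 0.174 and 1.06 RPKM, with 3 above and 2 below all WT libraries. The Vav-Ezh2-KO mean was 0.706 ± 0.122 RPKM (SD, n = 5) against 0.303 ± 0.101 (SD, n = 5) in WT, a log2 difference of 0.86 (SE 0.25). Against the Vav-Ezh2-WT libraries alone, the log2 difference was 0.66 (limma, adjusted p = 0.862). A two-sided exact permutation test gave p = 0.00794, the smallest that 5 against 5 libraries allow. The lack of overlap by itself fixes this p, so it adds nothing to it. The members were also chosen with earlier results of these data known. This p was not adjusted over the members tested, and the gene did not pass the test over all genes (limma, adjusted p = 0.542). All 5 Vav-Ezh2-KO libraries lay above all WT libraries in 0.601% of the 13646 genes tested. The Tie2-Ezh2-KO difference was 0.35 (SE 0.37).

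**Figure D2:**
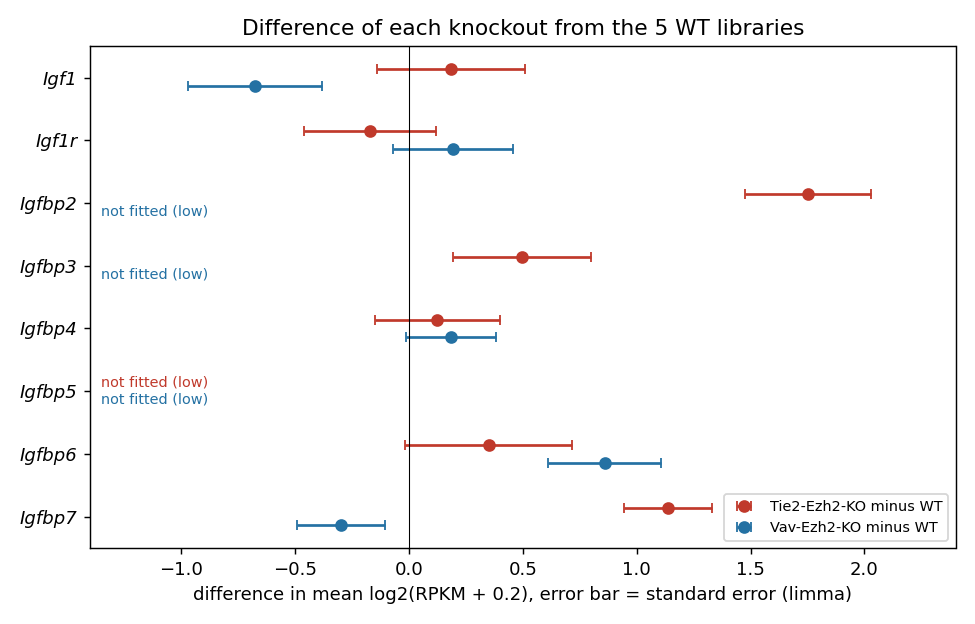
Difference of each knockout from the 5 WT libraries on the log2(RPKM + 0.2) scale (horizontal axis), with standard errors from limma as bars, for the members that passed the low-value filter. *Igfbp2* (1.75) and *Igfbp7* (1.14) stand highest in Tie2-Ezh2-KO, and in Vav-Ezh2-KO *Igfbp6* is at 0.86 and *Igf1* at -0.68.

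Of the 8 members, 7 passed the filter of 0.2 RPKM in at least 1 library for Tie2-Ezh2-KO against WT, *Igfbp2* and *Igfbp3* only through Tie2-Ezh2-KO libraries, and *Igfbp5* did not. As a description, *Igfbp2* and *Igfbp7* were past the limma threshold of adjusted p under 0.05, both higher, against a background of 2.73% of 14154 genes (2.42% higher). These 2 also had all Tie2-Ezh2-KO above all WT libraries, which held for 3.29% of genes. Since the members were selected on these libraries, and *Igfbp2* passed the filter only through the group where it was high, nothing is read from this count. For Vav-Ezh2-KO against WT, 5 members passed the filter and none passed limma's threshold, against 0.00733% of 13646 genes. At an unadjusted p under 0.05, 2 members (*Igf1*, *Igfbp6*) and 1082 genes were counted. limma-voom on reads recovered from the RPKM also called none of the members there.

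Some markers of other cell types were higher in Tie2-Ezh2-KO than in WT libraries. Which cells these transcripts came from was not tested. The embryonic globins *Hba-x* and *Hbb-bh1*, markers of primitive erythroid cells, rose with log2 differences of 6.33 and 1.18 (limma, adjusted p = 8.9e-05 and 0.0441). The third marker of the list, *Hbb-y*, did not pass (0.64; limma, adjusted p = 0.779), at 1.45 to 8.72 RPKM against 1.496 to 4.12 in WT. The sum of the 3 markers was 192.1 to 854.9 RPKM in Tie2-Ezh2-KO against 65.2 to 141.7 in WT and 59.9 to 155.1 in Vav-Ezh2-KO libraries. Of 7 visceral endoderm markers tested, 1 rose, *Amn*, at 1.52 to 4.66 RPKM against at most 0.798 in WT (log2 difference 3.01, limma, adjusted p = 0.00155). The 8 endothelial markers summed to 45.1 to 57.5 RPKM in Tie2-Ezh2-KO, 43.8 to 52.1 in WT and 32.2 to 66.7 in Vav-Ezh2-KO. This sum joins opposite differences. *Pecam1* was 6.67 to 13.8 RPKM in Tie2-Ezh2-KO against 15.4 to 22.5 in WT, a log2 difference of -0.62. The other endothelial markers had differences from 0.03 (*Cdh5*) to 0.85 (*Emcn*), and 0 of the 8 passed (limma). *Cdh5* was at most 0.349 RPKM in any WT library. The 9 mesenchymal markers summed to 2.37 to 3.21 RPKM in Tie2-Ezh2-KO and 2.35 to 3.54 in WT, with *Pdgfra* at 0 in both. This sum also joins opposite differences, from -0.67 (*Postn*) to 1.03 (*Twist1*) in the 5 markers tested, and 0 passed (limma). The 7 macrophage markers summed to 1.41 to 8.69 RPKM in Tie2-Ezh2-KO and 1.99 to 11.5 in WT, with *C1qa* at 0 in all libraries. In the 6 tested, differences ran from -1.05 (*Emr1*) to 0.48 (*C1qc*), and 0 passed (limma). The part of primitive erythroid transcripts in the *Igfbp2* and *Igfbp7* values was not tested. Without Tie2-Ezh2-WT 4 and Tie2-Ezh2-KO 7, the libraries with the highest visceral endoderm transcripts, the difference was 1.84 for *Igfbp2* and 1.17 for *Igfbp7*.

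The composition of binding-protein transcripts was described by the share of each gene in the summed RPKM of the 6 *Igfbp* genes. *Igfbp4* held 86.6% ± 5.09 (SD, n = 5) in WT, 76.2% ± 6.68 in Tie2-Ezh2-KO and 89.8% ± 1.93 in Vav-Ezh2-KO. *Igfbp7* held 12.6% ± 5.06, 21.6% ± 6.06 and 8.55% ± 1.505 in the same groups. These shares overlapped between Tie2-Ezh2-KO (13.5% to 27.2% for *Igfbp7*) and WT (4.92% to 17.9%), and *Igfbp4* varied widely within both. *Igfbp2* reached at most 2.22% in any library. The sum of the 6 genes was 44.6 ± 13.2 RPKM (SD, n = 5) in WT, 56.2 ± 18.3 in Tie2-Ezh2-KO and 48.0 ± 8.57 in Vav-Ezh2-KO.

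**Figure D3:**
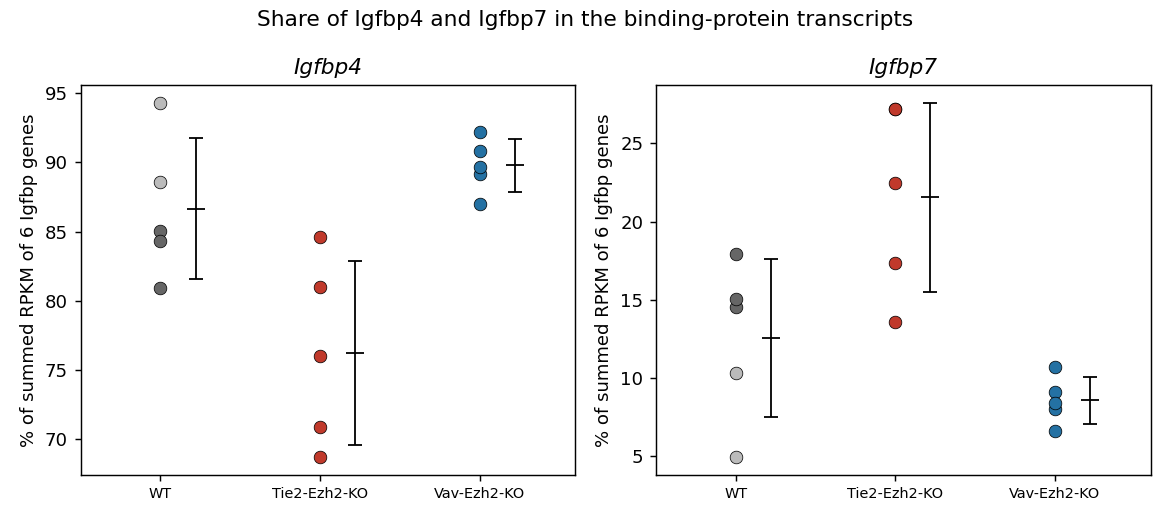
Share of *Igfbp4* (left) and *Igfbp7* (right) in the summed RPKM of 6 *Igfbp* genes, in percent, with axes that do not start at 0. Points are libraries (dark grey Tie2-Ezh2-WT, light grey Vav-Ezh2-WT), and bars to their right are mean and SD. The *Igfbp7* share is 13.5% to 27.2% in Tie2-Ezh2-KO and 4.92% to 17.9% in WT.

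The other genes of the pathway were followed through a list of 35, of which 28 were in the table. Among ligands and receptors, *Igf2*, the second ligand, was higher than *Igf1* on average but varied from 0.343 to 7.42 RPKM between libraries. It was 1.75 to 7.42 RPKM in WT, 1.18 to 5.64 in Tie2-Ezh2-KO and 0.343 to 4.08 in Vav-Ezh2-KO, with log2 differences from WT of 0.01 (SE 0.43) and -0.96 (SE 0.53) that did not pass the test (limma, adjusted p = 0.998 and 0.674). *Igf2r*, which clears IGF2, was 0.0218 to 0.158 RPKM in WT and 0.147 to 0.455 in Tie2-Ezh2-KO (0.85, SE 0.27; adjusted p = 0.141), and at 0.00780 to 0.167 RPKM in Vav-Ezh2-KO it was under the filter. *Insr*, the insulin receptor, was 0.264 to 0.754 RPKM in WT, 0.206 to 0.414 in Tie2-Ezh2-KO and 0.268 to 0.789 in Vav-Ezh2-KO, and the groups overlapped. *Igfbp1*, the remaining classical binding protein, and *Pappa*, the protease of IGFBP4, were listed at 0 in all libraries.

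In Tie2-Ezh2-KO against WT, 25 genes of the list were tested and 0 passed (limma), with 4 at an unadjusted p under 0.05, beside 1552 of all 14154 genes, and 0 by limma-voom. The median log2 difference of the list was 0.01, as it was over all 14154 genes (0.01). In Vav-Ezh2-KO against WT, 23 were tested and 0 passed (limma), with 3 at an unadjusted p under 0.05, beside 1082 of all 13646 genes, and 0 by limma-voom, and the median was -0.02 against -0.02 over all genes. Between the knockouts, 1 of 25 was higher and 1 lower in Tie2-Ezh2-KO, beside 3.51% of 14120 genes called in either direction. Of those calls 75.2% were higher in Tie2-Ezh2-KO, and 63.6% with quantile normalization.

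The 2 genes that differed between the knockouts were *Igf2bp2* and *Grb2*. Each knockout came from its own Cre line, so effects of the line and of the deletion cannot be told apart in this comparison. The share of all genes without overlap between the knockouts is not given here. *Igf2bp2*, an RNA-binding protein named for its binding of *Igf2* mRNA, was 28.2 to 59.8 RPKM in Tie2-Ezh2-KO against 16.9 to 27.0 in Vav-Ezh2-KO, without overlap, and 23.2 to 33.5 in WT. The log2 difference between the knockouts was 0.98 (SE 0.18; limma, adjusted p = 0.00753). *Grb2*, the adaptor that links receptors to Ras signalling, was 42.2 to 49.3 RPKM in Tie2-Ezh2-KO, 61.7 to 84.1 in Vav-Ezh2-KO and 49.8 to 67.9 in WT, and the Tie2-Ezh2-KO range lay under both others. Its log2 difference between the knockouts was -0.59 (SE 0.11; limma, adjusted p = 0.00638). Against WT neither gene passed in either knockout, with differences for *Igf2bp2* of 0.64 (adjusted p = 0.0809) in Tie2-Ezh2-KO and -0.33 (adjusted p = 0.599) in Vav-Ezh2-KO.

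**Figure D4:**
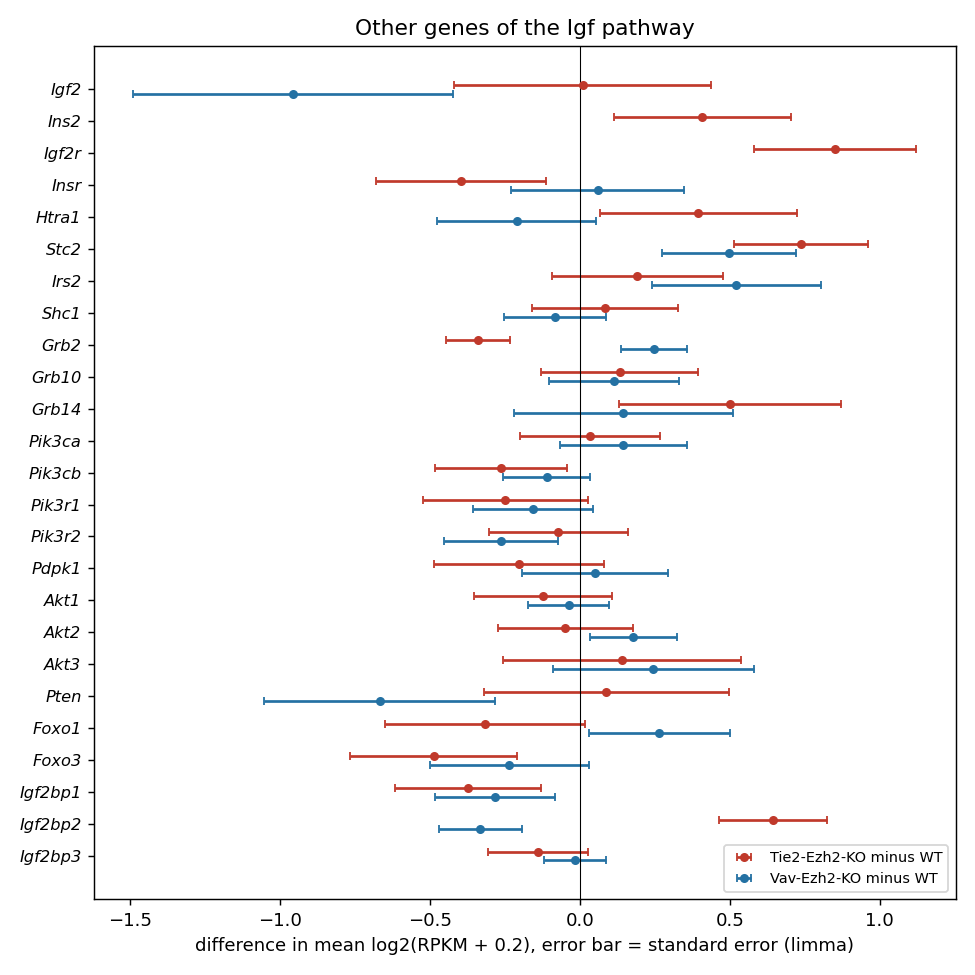
Difference of each knockout from WT on the log2(RPKM + 0.2) scale (horizontal axis) for the 25 genes of the Igf pathway list that were tested, with limma standard errors as bars. A gene with no point for Vav-Ezh2-KO did not pass the filter there. *Igf2bp2* is at 0.64 in Tie2-Ezh2-KO and -0.33 in Vav-Ezh2-KO, and *Grb2* at -0.34 and 0.25.

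The members with a mean above 1 RPKM were set against 12334 other genes by Pearson's r of log2(RPKM + 0.2) over the 15 libraries. *Igfbp7* was closest to *Utf1* (r = 0.938), *Shisa3* (r = 0.932) and *Khdrbs3* (r = 0.908). *Utf1* and *Shisa3* had low means of 0.485 and 0.160 RPKM, against 25.1 for *Khdrbs3*. For deviations from the 4 group means, these fell to 0.63, 0.17 and -0.11, so the likeness of *Shisa3* and *Khdrbs3* lay in the group means. *Igfbp4* was closest to *Tcf25* (r = 0.930), *Secisbp2* (r = 0.901) and *Ephb6* (r = 0.900), with 0.966, 0.892 and 0.923 for deviations. The mean of *Ephb6* was 0.427 RPKM. *Igf1r* was closest to *Tal1*, *Dock8* and *Arl6ip5* (r = 0.886, 0.881 and 0.862), with 0.868, 0.848 and 0.829 for deviations. The points share their libraries, sort and depth, and these values are descriptions. Among the members themselves, deviations from group means correlated at 0.65 between *Igf1r* and *Igfbp7*, 0.30 between *Igf1r* and *Igfbp4* and 0.13 between *Igfbp4* and *Igfbp7* (n = 15 libraries).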

How the data were processed

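The authors made the libraries of E10.5 EMPs with the SMARTer Ultra Low kit, 16 cycles of PCR and Nextera XT, and sequenced them as 75 bp single-end reads. Per the labels and the study's methods, reads were aligned to GRCm38/mm10 with TopHat2 2.0.13 and counted per RefSeq gene with featureCounts, and the authors deposited linear RPKM of 17454 genes. Whether counting used strand was not given in the sources used here.

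The members and lists were chosen with earlier results of these data known. Named genes were the 8 members and, of the pathway list, every gene past the threshold in any comparison plus *Igf2*, *Igf2r*, *Insr* and *Igfbp1*; *Pappa*, the markers named and *Hba-x*, *Hbb-bh1*, *Hbb-y* and *Amn* were added after their values were seen. Likeness used the 3 genes with the highest r among genes above 0.2 RPKM in at least 5 libraries.

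Differences were tested with limma 3.58.1 in R 4.3.3 (eBayes with trend) on log2(RPKM + 0.2), which understates changes of low genes, restricted to genes that exceeded 0.2 RPKM in 1 or more libraries, with Benjamini-Hochberg adjustment over all genes tested and a threshold of 0.05. Single members were tested by exact permutation over 252 divisions, without adjustment over the members. Since the members were chosen with earlier results known, these p-values are descriptions. Reads were recovered from the RPKM steps, and all 16877 genes above 0 came out whole within 0.001 reads. For 409 genes seen in at most 6 libraries, the length was a multiple set within 10% of an annotated transcript. Promoters and gene positions are RefSeq's on GRCm38.p6, and all 8 members matched. The code was tested on simulated data. Alternatives were pseudocounts of 1 and 0.05, other filters, normalizations and weights, all libraries in 1 fit, WT of the same Cre line, each library left out and Spearman's rho. limma-voom on recovered reads and the fit without the 2 libraries rich in visceral endoderm transcripts were chosen after seeing the data. Other data types of the study were not analysed here.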

Additional observations from a re-analysis of the deposited data

Results flagged for a closer look

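Several low values stood apart within a group of 5 libraries by the gap to the next library relative to the range, a criterion that chance meets in about 1 in 20 groups, and 23 groups were examined. *Igfbp2* was 0.133 RPKM in Vav-Ezh2-KO 1 and 0 in the other 4 Vav-Ezh2-KO libraries. *Igfbp3* was 0.0821 RPKM in Vav-Ezh2-WT 6 and 0.0486 RPKM in Vav-Ezh2-KO 10, each the only library of its group with a read. *Igfbp5* was 0.161 RPKM in Vav-Ezh2-WT 4, 0.0858 RPKM in Tie2-Ezh2-KO 7 and 0.111 RPKM in Vav-Ezh2-KO 9. With the other values at or near 0, any library with a few reads meets this criterion.

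The knockouts differed directly in *Grb2* (log2 difference of Tie2-Ezh2-KO minus Vav-Ezh2-KO of -0.59; limma, adjusted p = 0.00638) and *Igf2bp2* (0.98; limma, adjusted p = 0.00753). *Grb2* was past the threshold under 20 of 20 alternatives, with an adjusted p of at most 0.0351, and *Igf2bp2* under 19 of 20. None of these alternatives separates the Cre line from the deletion. *Igfbp7* lay above the WT mean in 5 of 5 Tie2-Ezh2-KO and below it in 5 of 5 Vav-Ezh2-KO libraries, and the difference between the knockouts was 1.44 on the log2 scale. For *Igfbp7* this is a description and no test is drawn on, because the gene was selected on the Tie2-Ezh2-KO libraries.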

How the results depend on the processing

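No paired analysis was made, because each library came from an individual YS and the labels name no pairs. As a description only, since the members were selected on these libraries, *Igfbp7* was past the threshold in Tie2-Ezh2-KO under 22 of 22 alternatives and *Igfbp2* under the 21 that kept it; above 1 RPKM *Igfbp2* was left out and 1 member was past it. Genes called in Tie2-Ezh2-KO against WT were 187 with WT of the same Cre line and 217 without Tie2-Ezh2-WT 4 and Tie2-Ezh2-KO 7, against 386. Of the pathway list, 1 gene, *Igf2bp2*, passed there with a common median, array weights and all 15 libraries in 1 fit (1 each), and 0 to 1 passed with each library left out, 1 without Tie2-Ezh2-KO 9. In Vav-Ezh2-KO, 2 genes passed with WT of the same Cre line and 1 to 2 with each library left out (2 without Tie2-Ezh2-WT 10, Tie2-Ezh2-WT 12 or Vav-Ezh2-WT 4). Between the knockouts, 304 genes passed without a filter, 765 with array weights, and 320 (without Vav-Ezh2-KO 28) to 969 (without Tie2-Ezh2-KO 9) with each library left out; without a filter 1 pathway gene, *Grb2*, passed. The exact test passed 2 members with quantile normalization (*Igf1*, p = 0.0317) and 1 to 2 with each library left out, the second being *Igf1* without Vav-Ezh2-WT 4 (p = 0.0238) or Vav-Ezh2-KO 26 (p = 0.0317) and *Igfbp7* without Vav-Ezh2-WT 6 (p = 0.00794). Of the 9 nearest genes, 2 were among the nearest by Spearman's rho. The cause was not tested. *Igfbp2*, *Igfbp3* and *Igfbp5* held at most 25 reads in any library, and the part of depth in this was not tested.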
